A study of Mus musculus with 20 samples.

Results

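Expression of 10 genes that mark resident and alternatively activated macrophages, Mrc1, Cd163, Folr2, Lyve1, Stab1, Retnla, Mgl2, Arg1, Chil3 and Ccl24, was followed across 20 microarrays of UVB-induced mouse melanomas. They were taken by platform gene symbol, 10 of the 19504 named genes on the array, and each was measured by 1 probe set. The tumors came from mice of 2 genotypes that share the melanocyte-specific, tamoxifen-activated recombinase Tyr::CreERT2 and both copies of the conditional allele BrafCA, which yields the oncogenic kinase BRAF V600E. Mice called B;p38α also carried 2 floxed copies of p38α (the gene Mapk14), and mice called B did not. All pups received 4-hydroxytamoxifen on the skin at 5 mg/ml on days 2.5 and 3.5 after birth with UVB at 6.24 kJ/m2 given once on the second of these days, and tumors were collected when they reached endpoint size. Arrays were made from complete tumors (3 B;p38α and 5 B), from dissociated tumor cells bound magnetically through CD45, a protein on the surface of all leukocytes (CD45+, 3 B;p38α and 3 B), and from the cells left after that selection (CD45-, 3 B;p38α and 3 B). Tyr-driven recombination targets melanocytes, so the macrophages of both genotypes are host cells outside the designed deletion. The labels name the samples biological replicates and do not say which came from the same animal or tumor, so the p-values below measure only the spread between these samples, which may be technical.

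Macrophages that settle in skin and other tissues take up spent proteins, hemoglobin and matrix fragments through endocytic receptors, and several of the genes followed here encode such receptors. Mrc1 is the mannose receptor, Cd163 the receptor for hemoglobin bound to haptoglobin, Folr2 the folate receptor beta, Lyve1 a hyaluronan receptor and Stab1 the scavenger receptor stabilin-1. In mice the cytokines IL-4 and IL-13 act through the receptor chain Il4ra and the transcription factor STAT6 to switch on an alternative program that includes Retnla (a secreted resistin-like protein), Mgl2 (a galactose-binding lectin), Arg1 (arginase 1), Chil3 (a chitinase-like protein, also known as Ym1) and Ccl24 (a chemokine that attracts eosinophils). Lyve1, Stab1 and Mrc1 are also known from endothelial cells, Lyve1 above all from lymphatic vessels.

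Retnla is the gene among the 10 with the widest spread over the arrays, a well-known target of STAT6 in mouse macrophages, and the one whose window holds a STAT6-type match, so its promoter is shown. The stretch is the 250 bases before the annotated start on the plus strand (GRCm38.p6, chr16:48842359-48842608, RefSeq), and its capitals mark a STAT6-type match (TTC and GAA with 4 bases between them) and, 1 base further on, a C/EBP-type match (TTGCNNAA).
Retnla: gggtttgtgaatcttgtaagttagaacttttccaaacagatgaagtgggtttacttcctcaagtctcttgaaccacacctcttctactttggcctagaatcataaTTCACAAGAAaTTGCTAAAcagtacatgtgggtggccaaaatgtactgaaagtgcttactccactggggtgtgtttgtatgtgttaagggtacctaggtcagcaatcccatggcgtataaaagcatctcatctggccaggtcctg
Among the 10 genes, 7 had a RefSeq promoter entry, with 8 windows of 300 bases in all, each reaching 50 bases past the start and searched on both strands. This STAT6-type form was found in 1 of the 7 genes, Retnla, and in 7.0% of the 32851 windows of all genes. The match TTGCNNAA likewise occurred in Retnla alone, against 10.8% of all windows. The STAT form with 3 bases between, TTCNNNGAA, occurred in Chil3 (8.3% of all windows). GAGGAA, the core of PU.1 sites, was present in Mrc1, Mgl2, Stab1 and Retnla (28.3% of all windows), and TGCTGA, part of the site of MAF factors, in Chil3, Folr2, Stab1 and Retnla (19.5%). These letters describe the windows and are not evidence of binding.

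Some facts of the arrays touch the values below. A narrower spread of values than in the rest was seen on 2 arrays, B CD45- replicate 1 (interquartile range 2.95 log2 units) and B CD45+ replicate 2 (3.41), against 3.62 to 3.89 for the others. B;p38α CD45+ replicates 1 and 2 correlated at 0.991 across genes. Mapk14, the targeted gene, lay between 9.57 and 9.95 in complete B;p38α tumors and between 9.89 and 10.16 in complete B tumors, and its genotype difference did not pass in complete tumors (-0.27, adjusted p = 0.807), CD45+ cells (-0.18, adjusted p = 0.672) or CD45- cells (-0.16, adjusted p = 0.803). No source used here says whether its probes cover the deleted stretch. The mean of 3 Y-linked genes differed within groups, and was 2.99 to 3.85 in complete B;p38α tumors and 2.76 to 9.29 in complete B tumors, and 2.75 to 3.23 in B;p38α CD45+ cells and 4.30 to 8.67 in B CD45+ cells. All values are log2 expression after RMA, in which adding 1 unit doubles the level. Levels were compared between samples of 1 gene, not between genes, except where Chil3 is set beside the array medians.

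**Figure D1:**
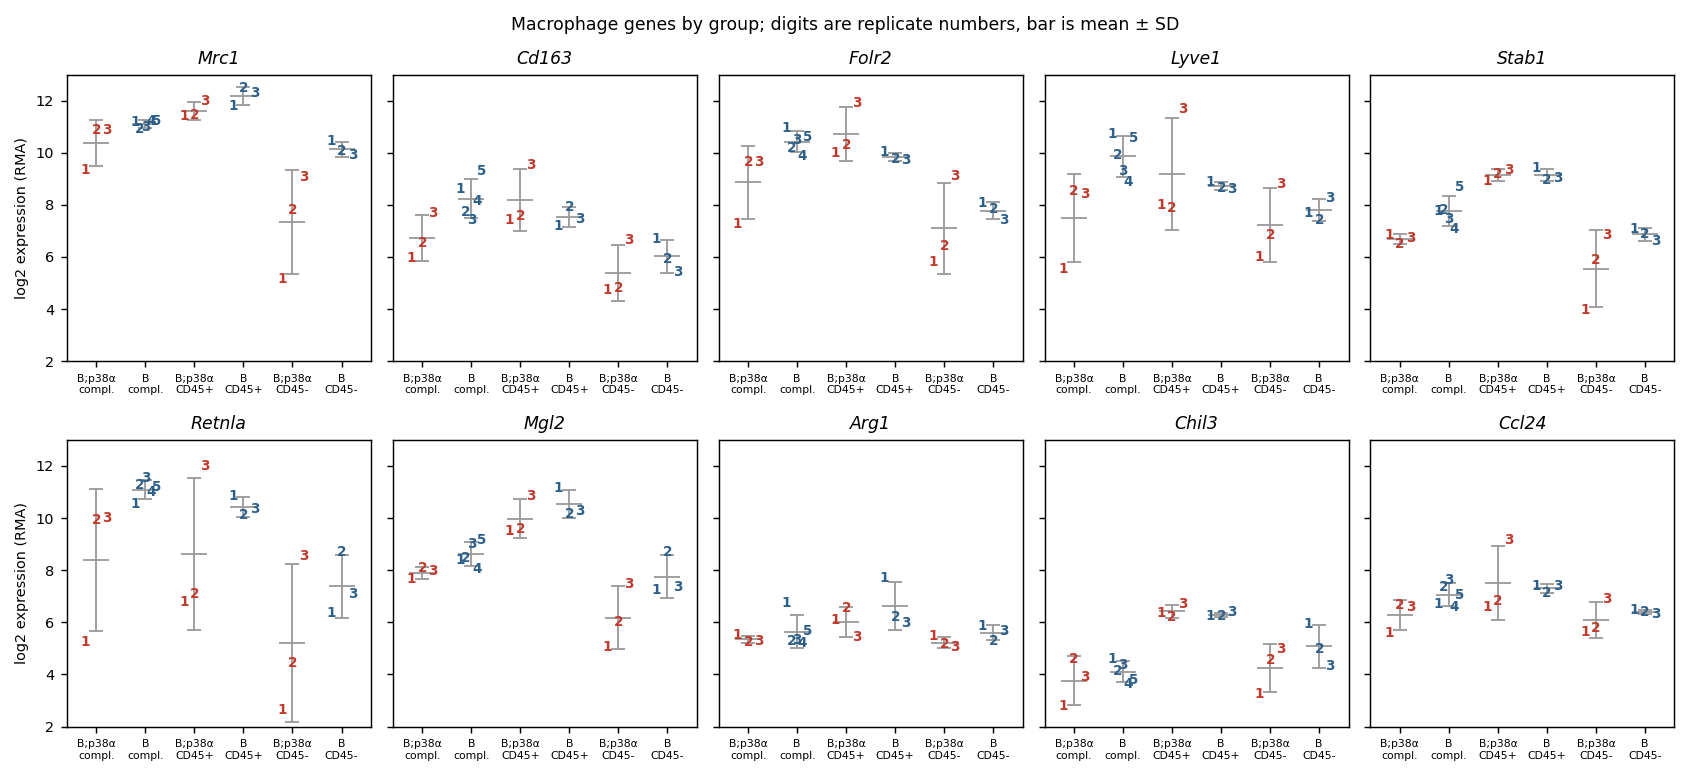
Log2 expression of the 10 genes (y axis) in the 6 groups (x axis), with B;p38α in red left of B in blue, each digit a replicate number and bars the mean ± SD. B;p38α complete replicate 1 and B;p38α CD45- replicate 1 sit low for Mrc1, Folr2 and Retnla, and B;p38α CD45+ replicate 3 sits high for Cd163, Folr2, Lyve1, Retnla and Ccl24.

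Selection for CD45 enriched most of these genes. Of the 10, 6 were higher in CD45+ than in CD45- cells over both genotypes (limma, adjusted p under 0.05), against 7.79% of all genes, and 0 were lower, against 4.37%. The median difference of the 10 was 2.49 log2 units, while that of all genes was -0.08. Every one of the 18 other resident macrophage genes also had a positive difference and 13 passed, as did 16 of the 17 core macrophage markers (median 2.80). The remaining core gene, the growth factor gene Csf1, fell. All 12 pan-leukocyte genes rose (median 2.79), which matches the CD45 label. Genes of blood endothelium did so too in 6 of 9 cases (median 1.18), whereas of 8 lymphatic endothelial genes 1 rose and 1 fell (median -0.43). Whether endothelial RNA contributed to the receptor genes was not tested.

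Mgl2 showed the largest difference of the 6. It stood at 9.51, 9.59 and 10.84 in B;p38α CD45+ cells and 11.14, 10.17 and 10.27 in B CD45+ cells, and in CD45- cells it stood at 5.07, 6.0 and 7.47 in B;p38α and 7.22, 8.69 and 7.35 in B. No CD45- array reached any CD45+ array, and the difference was 3.29 (SE 0.43, adjusted p = 0.000428), a 9.77-fold higher level.

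Stab1 separated the populations as cleanly. Its CD45+ values were 8.91, 9.19 and 9.35 in B;p38α and 9.40, 8.97 and 9.04 in B, and its CD45- values 3.95, 5.87 and 6.83 in B;p38α and 7.09, 6.90 and 6.60 in B. The 6 CD45+ arrays lay between 8.91 and 9.40, above all CD45- arrays, and the difference was 2.94 (SE 0.38, adjusted p = 0.000417).

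Folr2 stood at 9.996, 10.28 and 11.90 in B;p38α CD45+ cells and 10.03, 9.75 and 9.74 in B CD45+ cells, and at 5.79, 6.44 and 9.09 in B;p38α CD45- cells and 8.07, 7.86 and 7.42 in B CD45- cells. The populations again did not overlap (2.84, SE 0.51, adjusted p = 0.00359). Mrc1 rose by 3.16 (SE 0.51, adjusted p = 0.00187), Cd163 by 2.15 (SE 0.44, adjusted p = 0.00798) and Chil3 by 1.69 (SE 0.32, adjusted p = 0.00492), likewise without overlap, which makes 6 of 10 beside 5.78% of all genes higher without overlap.

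Lyve1, Retnla, Arg1 and Ccl24 did not pass over the 4 sorted groups. Retnla had the second largest mean difference of the 10, 3.24, but with an SE of 1.07 (adjusted p = 0.0780), and its CD45+ values of 6.78, 7.09 and 11.98 in B;p38α overlapped CD45- values of up to 8.71 in B. Lyve1 differed by 1.44 (95% interval 0.02 to 2.86, adjusted p = 0.198), Ccl24 by 1.17 (adjusted p = 0.0886) and Arg1 by 0.91 (adjusted p = 0.0702). These calls turn on the groups in the fit, since with all 6 groups Retnla (adjusted p = 0.0391), Arg1 (adjusted p = 0.0471) and Ccl24 (adjusted p = 0.0370) passed. Within genotypes, the same fit called Mrc1 (4.26), Cd163 (2.79), Folr2 (3.62), Stab1 (3.60), Mgl2 (3.80) and Chil3 (2.16) in B;p38α, where 4.34% of all genes rose, and Stab1 (2.28, adjusted p = 0.0370) and Mgl2 (2.78, adjusted p = 0.0261) in B, where 3.90% did. The genotypes were not shown to differ in this, as reported with the interactions below. The fit gave each gene 1 spread over the 4 sorted groups, so the calls in 1 genotype depend on the other genotype too. For Retnla the SD was 2.92 in CD45+ and 3.02 in CD45- cells of B;p38α, and 0.38 and 1.21 in those of B.

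**Figure D2:**
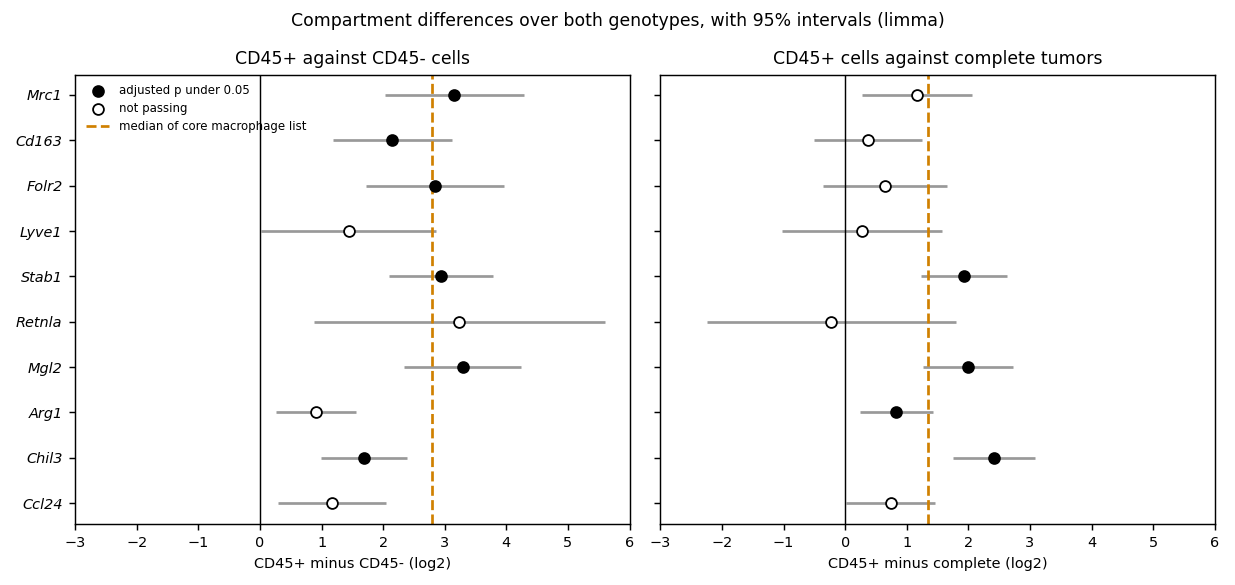
Differences between compartments over both genotypes on the log2 scale (x axis) for each gene (y axis), with 95% intervals from limma, filled points for adjusted p under 0.05 and a dashed line at the median of the core macrophage list. Cd163, Folr2, Lyve1 and Retnla lie near 0 against complete tumors (-0.22 to 0.65), left of the core macrophage median of 1.34, as means of positive differences in B;p38α (0.21 to 1.87) and negative ones in B (-1.15 to -0.58).

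Against complete tumors the enrichment was uneven. Stab1 (1.93, SE 0.33, adjusted p = 0.000368), Mgl2 (1.99, SE 0.35, adjusted p = 0.000458), Chil3 (2.42, SE 0.32, adjusted p = 2.8e-05) and Arg1 (0.83, SE 0.28, adjusted p = 0.0375) were higher in CD45+ cells, 4 of 10 where 12.9% of all genes rose. Arg1 lost its call in 8 of the 14 fits that left out 1 array. The differences of Cd163 (0.37, 95% interval -0.51 to 1.25), Folr2 (0.65, -0.36 to 1.65), Lyve1 (0.27, -1.02 to 1.57) and Retnla (-0.22, -2.25 to 1.80) did not pass, and those of Mrc1 (1.16, adjusted p = 0.0516) and Ccl24 (0.74, adjusted p = 0.127) did not either. Mrc1 passed with only the compared groups in the fit (adjusted p = 0.00181), and Arg1 did not (adjusted p = 0.0571). The small means over both genotypes combine values of opposite sign, none of which passed: in B;p38α the differences were 1.45 for Cd163, 1.87 for Folr2, 1.70 for Lyve1 and 0.21 for Retnla, and in B they were -0.71 for Cd163, -0.58 for Folr2, -1.15 for Lyve1 and -0.66 for Retnla. Core macrophage markers rose in 15 of 17 cases (median 1.34) and pan-leukocyte genes in 12 of 12 (median 1.68). The other resident macrophage genes rose in 5 of 18 (median 0.57): Maf, a transcription factor (2.15), Gas6, a ligand of Mertk (1.34), and Fcgrt, Mertk and Selenop by under 1.

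Chil3 gives the plainest case of the 4. It measured 6.35, 6.20 and 6.70 in B;p38α CD45+ cells and 6.25, 6.23 and 6.38 in B CD45+ cells. In complete tumors it measured 2.77, 4.61 and 3.90 in B;p38α and 4.60, 4.13, 4.36, 3.64 and 3.79 in B. Even the lowest CD45+ array, at 6.20, was above the highest complete tumor, at 4.61. All these Chil3 values lay below 6.75, the lowest array median, and what part of them is background was not tested.

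In CD45- cells 5 of the 10 genes were lower than in complete tumors, against 6.47% of all genes. They were Mrc1 (-1.99, adjusted p = 0.00632), Cd163 (-1.78, adjusted p = 0.0114), Folr2 (-2.19, adjusted p = 0.00721), Retnla (-3.46, adjusted p = 0.0256) and Mgl2 (-1.30, adjusted p = 0.0228). Leaving out 1 array gave 3 to 6, and leaving out the 2 arrays of narrowest spread gave 3. Stab1 (-1.01, adjusted p = 0.0525) and Lyve1 (-1.17, adjusted p = 0.222) did not pass, nor did Ccl24 (-0.43) and Arg1 (-0.08), and Chil3 had a positive difference of 0.73 (adjusted p = 0.134). Skeletal muscle genes fell in 11 of 11 cases in both selected populations against complete tumors (medians -3.77 for CD45+ and -4.13 for CD45-).

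In complete tumors all 10 genes had lower means in B;p38α than in B, but 0 of 10 passed in limma's fit, as did 0% of all genes. At an unadjusted p under 0.05, 8 of the 10 were lower and 0 higher, where 3.76% of all genes were lower and 2.85% higher. The median of the 10 differences was -0.93, beside -0.01 for all genes, of which 51.8% were below 0. Arrays of the 2 genotypes did not overlap for Mrc1, Folr2, Lyve1, Stab1 and Retnla, 5 of 10, with 2.54% of all genes lower without overlap. In RNA of whole tumors, fewer macrophages and less RNA of these genes per macrophage cannot be told apart.

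Retnla had the widest difference. It measured 5.26, 9.94 and 10.01 in complete B;p38α tumors, against 10.52, 11.26, 11.52, 10.98 and 11.18 in complete B tumors. All B;p38α arrays were below all B arrays, and replicate 1 was far below the other B;p38α tumors too. The difference was -2.69 (SE 0.92, adjusted p = 0.724), and it was -1.12 without that replicate.

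Lyve1 stood at 5.54, 8.53 and 8.40 in complete B;p38α tumors and at 10.70, 9.91, 9.28, 8.87 and 10.56 in complete B tumors. Again the groups did not overlap (difference -2.37, SE 0.68, adjusted p = 0.716). Folr2 measured 7.26, 9.66 and 9.66 in B;p38α and 10.96, 10.18, 10.47, 9.89 and 10.59 in B, a difference of -1.56 (SE 0.51, adjusted p = 0.716). Without B;p38α replicate 1 the differences were -1.40 for Lyve1 and -0.76 for Folr2.

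Stab1 differed less but did not rest on that replicate. Its values were 6.84, 6.48 and 6.72 in complete B;p38α tumors and 7.78, 7.81, 7.45, 7.09 and 8.67 in complete B tumors. The difference was -1.08 (SE 0.31, adjusted p = 0.716) with replicate 1 and -1.16 without it. Mrc1 measured 9.35, 10.88 and 10.86 in B;p38α and 11.19, 10.92, 10.99, 11.22 and 11.23 in B, so that its difference of -0.75 (SE 0.32, adjusted p = 0.742) shrank to -0.24 without replicate 1.

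Cd163 measured 5.95, 6.55 and 7.69 in complete B;p38α tumors and 8.62, 7.71, 7.42, 8.13 and 9.29 in complete B tumors, where 1 B;p38α array overlapped (-1.50, SE 0.47, adjusted p = 0.716). Ccl24 (-0.78, SE 0.31), Mgl2 (-0.71, SE 0.26), Chil3 (-0.34) and Arg1 (-0.30) had smaller differences and overlapping groups, with adjusted p of 0.733 to 0.908. Without B;p38α replicate 1, 9 of the 10 differences were still below 0, with a median of -0.67 and Chil3 at 0.16, and 5 of 10 were lower without overlap, beside 7.11% of all genes. In a separate fit of the complete tumors, with replicate 1 kept and the Y-linked level as a covariate, the median was -1.17.

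Other lists also lay mostly below 0 in complete tumors, with 0 genes called in any. Of 18 other resident macrophage genes 16 were below 0 (median -0.99) and 7 lower without overlap, with the largest differences for the ficolin Fcna (-2.07) and the lectins Cd209f (-1.85) and Cd209g (-1.83). Of 17 core macrophage markers 15 were below 0 (median -0.57), with C1qc at -0.86, Adgre1 at -0.83 and Fcer1g at -0.83, and the pan-leukocyte median was -0.36. Of 25 other genes of the IL-4 and IL-13 pathway 19 were below 0 (median -0.31), led by the lectin Clec10a (-0.97), the receptor Il4ra (-0.76) and the transcription factor Pparg (-0.75). Classical activation genes had a median of -0.02, with Cxcl9 at 1.17.

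Markers of other tissues had lower means in the same tumors. Adipocyte genes had a median of -0.93, and their mean level was 6.45 to 7.13 in B;p38α and 6.74 to 8.79 in B. The mean of the 11 skeletal muscle genes was 5.75, 8.62 and 10.85 in B;p38α replicates 1 to 3 and 10.11 to 10.81 in B (median difference -1.93). The mean over the 10 genes was 6.17, 7.66 and 7.71 in the same replicates and 7.97 to 8.72 in B. Of the complete tumors, B;p38α replicate 1 had the least muscle RNA and the lowest mean over the 10 genes. B;p38α replicate 3 had the most muscle RNA, and its mean over the 10 genes was below that of every B tumor. Lymphatic and blood endothelial lists had medians of -0.51 each, and medians were -0.48 for neutrophil, -0.47 for melanocyte, -0.43 for fibroblast, -0.32 for eosinophil, basophil and mast cell, -0.13 for dendritic cell and -0.10 for keratinocyte genes. The part of these tissues in the result was not tested. The mean of the 10 genes minus the mean of the core macrophage list was -3.10, -2.22 and -1.80 in B;p38α and -1.89 to -1.16 in B. The tumor at -1.80 thus overlapped the B range. The group means of the sorted populations did not repeat this lower level. In CD45+ cells the group means of the same measure, with the genotypes in the same order, were -2.296 and -2.361. That B;p38α mean rests on replicate 3 (-1.66), since replicates 1 and 2 (-2.68 and -2.54) lay below every B array (-2.44 to -2.26). In CD45- cells the group means were -1.782 and -2.305, so that B had the lower mean there. Arrays of the genotypes overlapped in both populations, and these differences were not tested.

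**Figure D3:**
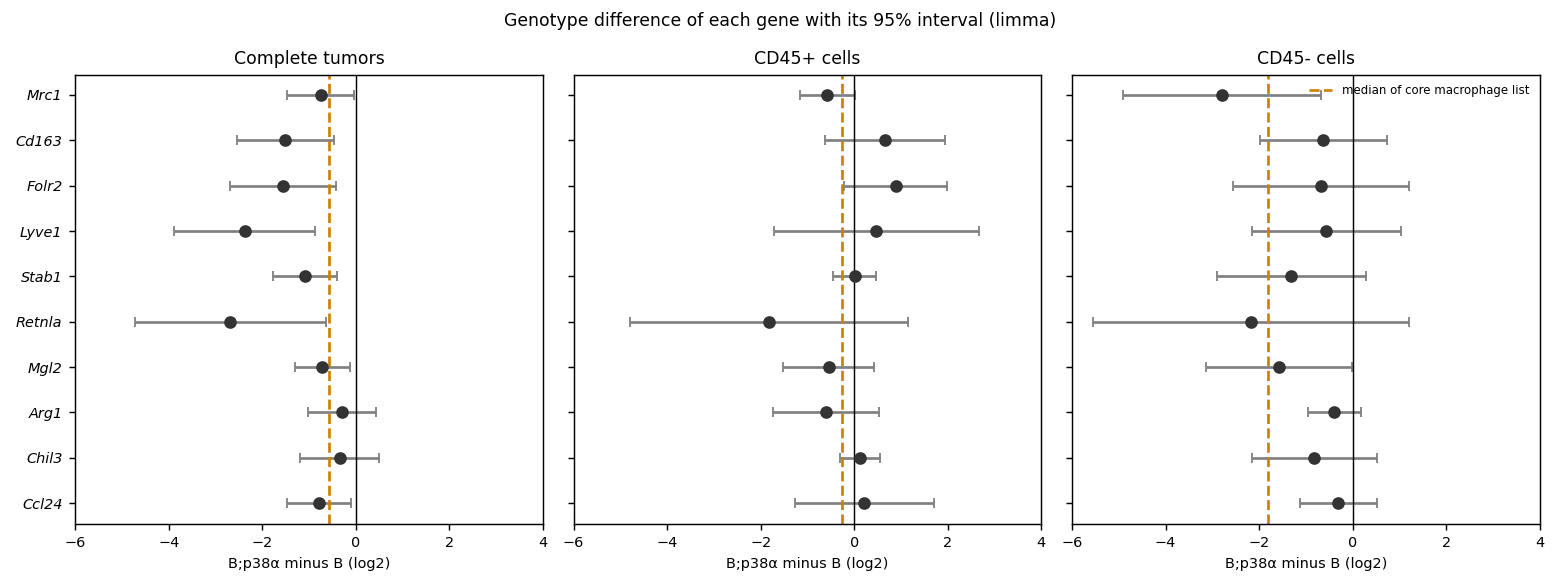
Genotype difference in log2 units, B;p38α minus B (x axis), for each gene (y axis) in complete tumors, CD45+ cells and CD45- cells, with 95% intervals from limma that are not adjusted for the number of genes and a dashed line at the median of the core macrophage list. All 10 points lie left of 0 in complete tumors and in CD45- cells, and 4 of 10 do in CD45+ cells.

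In CD45+ cells, the fraction that holds the selected leukocytes, the 10 genes had no common direction. The median difference was 0.07 (all genes 0.00), 4 of 10 were below 0 beside 49.6% of all genes, and 0 passed in limma's fit, as for all genes (0%). None reached an unadjusted p of 0.05 either, where 5.08% of all genes were lower and 5.69% higher, and the groups overlapped for each of the 10, while 9.16% of all genes were higher and 7.35% lower without overlap. Mrc1 came nearest, at 11.40, 11.43 and 11.99 in B;p38α and 11.81, 12.47 and 12.28 in B (-0.58, SE 0.25, adjusted p = 0.467).

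B;p38α replicate 3 stood apart in most of these genes. Retnla measured 6.78, 7.09 and 11.98 in B;p38α CD45+ cells and 10.84, 10.10 and 10.36 in B CD45+ cells. Replicates 1 and 2 of B;p38α thus lay below every B array and replicate 3 above them all, and the difference was -1.82 (95% interval -4.79 to 1.16, adjusted p = 0.579). Lyve1 had the same shape, with 8.0, 7.89 and 11.68 in B;p38α and 8.88, 8.65 and 8.62 in B (0.47, SE 0.94, adjusted p = 0.848). The other differences were 0.89 for Folr2 (adjusted p = 0.499), 0.66 for Cd163, 0.22 for Ccl24, 0.13 for Chil3 and 0.01 for Stab1, and -0.55 for Mgl2 and -0.61 for Arg1.

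Cd163 (7.41, 7.59 and 9.54 in B;p38α, against 7.18, 7.93 and 7.45 in B) and Ccl24 (6.59, 6.81 and 9.16 in B;p38α, against 7.41, 7.11 and 7.39 in B) also had their top value in that array. It gave the highest value of all 20 arrays for Cd163, Folr2, Lyve1, Retnla, Chil3 and Ccl24. Its core macrophage mean was the highest of the 20 as well (11.52, against 10.79 and 10.81 in the other B;p38α CD45+ arrays and 11.14 to 11.32 in B).

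Without replicate 3, Retnla was lower in B;p38α CD45+ cells by limma's test (-3.50, adjusted p = 0.0304), 1 of 10 where 30 of all 19504 genes were called. Of the 10 differences 9 were then below 0 with a median of -0.46. For 5 of 10 genes the groups did not overlap, where 18.7% of all genes were lower without overlap. Core macrophage markers then stood below 0 in 16 of 17 cases (median -0.47) and pan-leukocyte genes in 12 of 12 (median -0.45). That fit rests on replicates 1 and 2, the B;p38α pair that correlated at 0.991. With arrays weighted by their fit, Retnla (-2.97, adjusted p = 0.0183) and Mrc1 (-0.81, adjusted p = 0.0103) passed. The weighted fit called 5303 of all 19504 genes, so its 2 of 10 are no result about these genes. Neither passed with all arrays weighted equally.

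Among the other pathway genes in CD45+ cells, 0 of 25 passed and 18 were below 0 (median -0.16). The chemokines Ccl17 (-1.56, adjusted p = 0.395) and Ccl22 (-1.18, adjusted p = 0.392), both known as products of IL-4-treated macrophages and dendritic cells, had the largest negative differences, and Il10 the largest positive one (1.07, adjusted p = 0.448). Of 18 other resident genes 9 were below 0 and 0 passed, with Fcna at 2.14 and the fatty acid receptor Cd36 at -1.69. Core macrophage markers had a median of -0.27 and blood endothelial genes of -0.69. Dendritic cell genes, of interest because Mgl2 is also known from dendritic cells, had a median of -0.21.

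In CD45- cells the 10 genes again had lower means in B;p38α, all 10 below 0 where 44.2% of all genes were, with a median of -0.75 (all genes 0.05). None passed, where 0.0103% of all genes did, and 2 of 10 were lower at an unadjusted p under 0.05 (3.27% of all genes), Mrc1 and Mgl2. Mrc1 measured 5.16, 7.82 and 9.06 in B;p38α CD45- cells and 10.46, 10.05 and 9.91 in B CD45- cells. It was the only one of the 10 whose groups did not overlap (5.36% of all genes lower without overlap), with a difference of -2.79 (SE 0.90, adjusted p = 0.675).

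Retnla in CD45- cells measured 2.62, 4.45 and 8.53 in B;p38α and 6.34, 8.71 and 7.08 in B. It spread over more than any other of the 10 within B;p38α, and replicate 3 lay inside the B range (-2.17, SE 1.43, adjusted p = 0.678). Mgl2 differed by -1.57 (SE 0.66), Stab1 by -1.31 (SE 0.67) and Chil3 by -0.82, and Folr2 (-0.68), Cd163 (-0.63), Lyve1 (-0.57), Arg1 (-0.39) and Ccl24 (-0.31) by less. The other resident genes had a median of -0.76 with 16 of 18 below 0, and the IL-4 and IL-13 pathway genes of -0.40 with 20 of 25 below 0.

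Leukocyte genes had lower means in the same samples. Mean core macrophage levels were 6.23, 8.02 and 8.96 in B;p38α CD45- cells and 9.04 to 9.60 in B CD45- cells, and the mean of the pan-leukocyte genes was 6.10, 7.70 and 8.23 in B;p38α and 8.61 to 8.92 in B. Of the core list 16 of 17 were below 0 with a median of -1.81, and of the pan-leukocyte list 12 of 12 with a median of -1.42. B;p38α replicate 1 was the lowest CD45- array in both lists and in Mrc1, Cd163, Folr2, Lyve1, Stab1, Retnla, Mgl2, Chil3 and Ccl24. The median of the 10 was -0.41 without it and -1.51 without replicate 3. Without replicate 1, Mrc1 was at -1.70, Retnla at -0.88, Folr2 at -0.018, Lyve1 at 0.041 and Ccl24 at -0.068. Without replicate 3, Mrc1 was at -3.65, Retnla at -3.84 and Folr2 at -1.67, and 8 of 10 were lower without overlap, beside 9.64% of all genes. How far leukocytes left in the CD45- fraction account for the values was not tested.

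**Figure D4:**
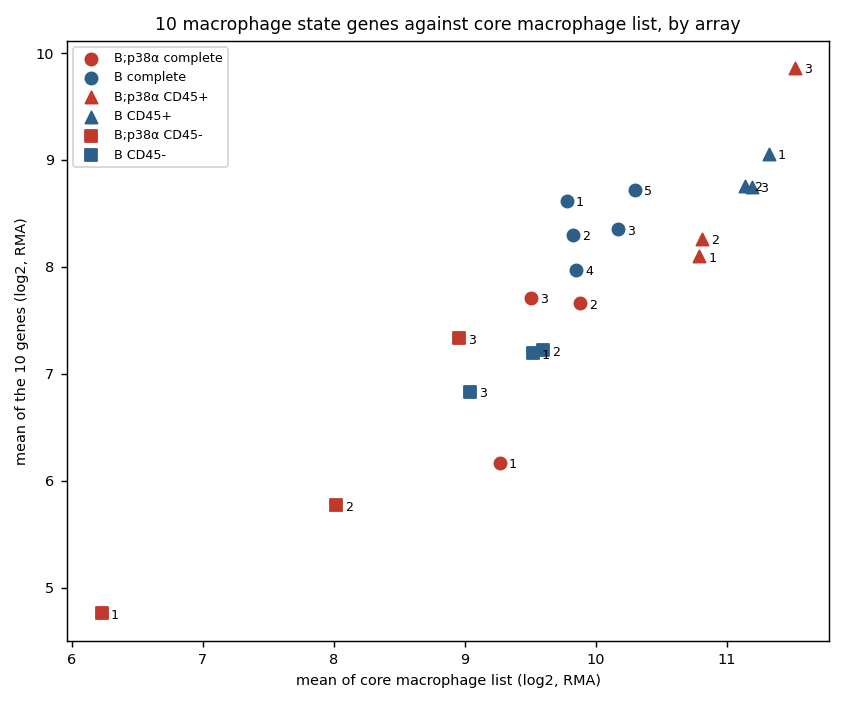
Mean log2 level of the 10 genes (y axis) against the mean of the core macrophage list (x axis) for each of the 20 arrays, with red for B;p38α, blue for B, circles for complete tumors, triangles for CD45+ and squares for CD45- cells, and digits for replicates. B;p38α CD45- replicate 1 lies lowest on both axes (4.76 and 6.23), and B;p38α CD45+ replicate 3 highest (9.86 and 11.52).

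Whether genotype differences differed between compartments was tested directly. For complete tumors minus CD45+ cells 0 of 10 genes passed, as did 0% of all genes. At an unadjusted p under 0.05, Lyve1 (-2.84, SE 1.23, adjusted p = 0.685), Folr2 (-2.44, SE 0.95, adjusted p = 0.682) and Cd163 (-2.16, SE 0.84, adjusted p = 0.682) were below 0, 3 of 10 beside 4.06% of all genes. For Retnla the contrast was -0.87 with a 95% interval of -4.92 to 3.17. For CD45+ minus CD45- cells 0 of 10 passed, again as for all genes (0%), and 1, Mrc1, had an unadjusted p under 0.05 (2.21, SE 0.89), beside 1.34% of all genes. The genotype differences of the 10 genes were therefore not shown to differ between compartments.

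The 10 genes varied together in part. With each compartment's mean subtracted, 40 of their 45 pairs correlated above 0 over the 20 arrays and 34 above 0.5 (Pearson, median 0.62). Arrays of both genotypes and of fractions that may come from the same tumors enter these values, which are a description. Folr2 and Lyve1 were the closest pair (0.91), and Arg1 and Ccl24 the farthest apart (-0.27). Arg1 stood aside from the rest, with a median of -0.01 with the other 9. Its highest levels were in single B arrays, 7.69 in CD45+ replicate 1 and 6.75 in complete replicate 1, against 6.55 for the highest B;p38α array. The other arrays of these B groups lay at 6.21 and 5.99 in CD45+ cells and 5.21 to 5.66 in complete tumors. Complete B replicate 1 also had the highest keratinocyte mean of the 20 arrays (7.49). B CD45+ replicate 1, with the highest Arg1 level, had the lowest keratinocyte mean of the 20 (4.63). The part of keratinocytes in the Arg1 values was not tested.

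The genes most like each of them separated the set further. Nearest to Folr2 were Cd209g (0.96), Cd209f (0.95) and Cbr2 (0.94), and to Lyve1 Cd209g (0.95), Cd209f (0.91) and Pf4 (0.90), all on the list of other resident genes. Ccl24 was nearest to the kinase gene Mknk1 (0.86), Cd209g (0.86) and Cd209d (0.86). Mrc1 had Slc9a9 (0.97), the leukocyte tetraspanin Cd53 (0.96) and Ly86 (0.96) as its nearest, and Stab1 had Rac2 (0.95), Il4ra (0.94) and Laptm5 (0.94). Mgl2 was nearest to Lrrc25, Itgam and Itgb2 (0.94, 0.94 and 0.93), and Cd163 to Npl, Siglec1 and Hpse (0.90, 0.87 and 0.86). For Retnla they were Ccl6 (0.93), Susd1 (0.91) and Tm6sf1 (0.91), for Chil3 Ccl8 (0.84), Gmfg (0.82) and C1qa (0.81), and for Arg1 the vitamin D receptor Vdr (0.79), Stfa2l1 (0.79) and Gm19345 (0.73).

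The order of the groups differed between genes. Folr2, Stab1, Chil3 and Ccl24 had their highest mean in B;p38α CD45+ cells, Mrc1, Mgl2 and Arg1 in B CD45+ cells, and Cd163, Lyve1 and Retnla in complete B tumors. The first 4 of these rankings rest on B;p38α CD45+ replicate 3, without which the B;p38α CD45+ means were 10.14 for Folr2 (10.42 in complete B tumors), and 9.05 for Stab1, 6.27 for Chil3 and 6.70 for Ccl24 (9.14, 6.29 and 7.30 in B CD45+ cells). The lowest mean was in B;p38α CD45- cells for all but Chil3, which was lowest in complete B;p38α tumors. For Mrc1 the means were 11.61 ± 0.33 in B;p38α CD45+ cells, 12.19 ± 0.34 in B CD45+ cells, 10.36 ± 0.87 in complete B;p38α tumors, 11.11 ± 0.15 in complete B tumors, 7.35 ± 1.99 in B;p38α CD45- cells and 10.14 ± 0.29 in B CD45- cells (SD, n = 3, and n = 5 for complete B tumors). Ranked by mean, the neighbors overlapped between the CD45+ groups and between complete B;p38α tumors and B CD45- cells, and in the other steps they did not.

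By RefSeq on GRCm38.p6 the 10 genes lie apart: Mrc1 at chr2:14229414-14332023, Cd163 at chr6:124304636-124330529, Folr2 at chr7:101839988-101857190, Lyve1 at chr7:110850607-110862953 and Stab1 at chr14:31139017-31168651. Retnla lies at chr16:48842609-48844461, Mgl2 at chr11:70130125-70137542, Arg1 at chr10:24915207-24927470, Chil3 at chr3:106147554-106167564 and Ccl24 at chr5:135569935-135573123. Only Folr2 and Lyve1 share a chromosome.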

How the data were processed

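Gene expression of 20 samples was measured on microarrays with biotin-labeled cDNA. The values are log2 expression values deposited by the authors after RMA (background correction, normalization and probe set summary), per the submitters' processing notes, and were used as deposited. No source used here names the set of arrays that RMA normalized jointly. The table had 21244 rows, of which 19570 carried 1 gene symbol, 0 several and 1674 none. Of several rows for 1 gene only that with the highest mean entered, so that 66 rows were dropped and 19504 genes remained. All 19570 names matched RefSeq (GRCm38.p6) by entrez number. Arrays have no depth, and their number, 3 to 5 per group, limits the precision.

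Groups came from the sample labels. Differences were tested in limma 3.58.1 (lmFit, then eBayes, under R 4.3.3), and p-values were adjusted by Benjamini-Hochberg over all 19504 genes, with a threshold of 0.05. Genotypes were compared within each compartment as B;p38α minus B. CD45+ and CD45- cells were compared over the 4 sorted groups, and comparisons with complete tumors and the interactions were fitted over all 6 groups. Gene lists (16, with 187 of 201 genes measured) are described by counts and medians. Some genes stand on more than 1 list: Mertk on the resident and the core macrophage list, Clec10a on the IL-4 and IL-13 pathway and the dendritic cell list. Retnlg stands on the IL-4 and IL-13 pathway and the neutrophil list. The members and lists were chosen with earlier results of these data known. Every member is named. From each list up to 3 genes with the largest difference may be named, and any that passed. For each member the 3 genes of highest correlation were named, after subtracting each compartment's mean. On simulated arrays with 19504 genes a change of 1 log2 unit was recovered in 53% of changed genes for complete tumors, 25% for CD45+ and 0% for CD45- genotype comparisons, and a change of 2 in 88%, 82% and 48%. Python 3.11.15 and matplotlib 3.10.9 drew the figures.

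Replicate numbers were not shown to pair the samples. Of 18 same-numbered pairs of compartments 6 had a correlation of deviations over 0.1, beside 9 of 48 pairs of unlike number. Of 9 same-numbered pairs of genotypes 2 did, beside 6 of 24. Between CD45+ and CD45- cells, same-numbered B;p38α replicates 1 to 3 correlated at 0.30, -0.11 and 0.35. In B the highest values were between unlike numbers, 0.60 for CD45+ 1 with CD45- 2 and 0.62 for CD45+ 2 with CD45- 1. Whether samples share a tumor is therefore not known. Alternatives were the replicate number as a block, other groups in the fit, quantile normalization, removal of dim genes, the mean of several rows per gene, array weights, a trended robust variance, Y-linked expression as a covariate and each array left out. A fit that averaged the most alike arrays and another without the 2 arrays of narrowest range were added after the data were seen.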

Additional observations from a re-analysis of the deposited data

How the results depend on the processing

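Leaving out 1 array kept direction and side of the threshold in 800 values of single genes, ended 18 calls, added 8 and reversed 34 signs, and the other alternatives did so in 714, 4, 17 and 17. The reversed values below did not pass in the fits reported above, and the cause was not tested. For the genotype difference in CD45+ cells, array weights called 2 of the 10 genes but 5303 of all 19504, and gave Lyve1 at -0.37, Arg1 at 0.19, Chil3 at -0.064 and Ccl24 at -0.44. Quantile normalization gave Stab1 at -0.039, omission of the 2 arrays of narrowest range Stab1 at -0.071, and the Y-linked covariate Mgl2 at 0.070 and Arg1 at 0.61. Leaving out 1 array called 0 to 1 gene there (1, Retnla, without B;p38α replicate 3, where 30 of all 19504 genes were called). It moved Cd163 over -0.021 to 1.04, Lyve1 over -0.77 to 1.12, Stab1 over -0.090 to 0.14, Chil3 over -0.016 to 0.24 and Ccl24 over -0.60 to 0.68. In complete tumors Chil3 ranged over -0.77 to 0.16, and in CD45- cells Lyve1 over -1.36 to 0.041 and the median over -1.51 to -0.41.

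For CD45+ cells against complete tumors, array weights gave Lyve1 at -0.34, averaging the most alike arrays gave Retnla at 0.20, and leaving out 1 array moved Lyve1 over -0.35 to 0.60 and Retnla over -1.06 to 0.24. For CD45- cells against complete tumors, 3 genes were called without the narrowest arrays and 3 to 6 without 1 array, with Arg1 at -0.15 to 0.054. For complete tumors minus CD45+ cells, array weights gave Mrc1 at 0.24, Retnla at 0.78 and Arg1 at -0.41, and the narrowest arrays left out gave Mgl2 at 0.02. Without 1 array the ranges were -0.42 to 0.34 for Mrc1, -1.79 to 0.81 for Retnla, -0.47 to 0.27 for Mgl2, -0.22 to 0.63 for Arg1 and -0.89 to 0.028 for Chil3. For CD45+ minus CD45- cells, array weights gave Retnla at -0.31, Arg1 at 0.41 and Ccl24 at -0.11, and the ranges were -0.21 to 1.83 for Lyve1, -1.33 to 2.02 for Retnla, -0.54 to 0.31 for Arg1 and -0.30 to 0.99 for Ccl24.

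With the replicate number as a block, although the numbers were not shown to pair the samples, Lyve1 (adjusted p = 0.0166), Retnla (adjusted p = 0.00348) and Ccl24 (adjusted p = 0.016) also passed for CD45+ against CD45- cells, and Mrc1 (1.20, adjusted p = 0.0289) for CD45+ cells against complete tumors. Mrc1 also passed there with only the compared groups (adjusted p = 0.00181) and without dim genes (adjusted p = 0.0370). It did so too after quantile normalization (adjusted p = 0.0443) and with array weights (adjusted p = 0.0143). Arg1 passed for CD45+ against CD45- cells with all 6 groups, without dim genes and with array weights (adjusted p = 0.0306 to 0.0471). The share of all genes called in these alternative fits is not given here. The added passes are therefore no result about these genes in particular. Where 1 array was left out, each remaining group still held at least 2 arrays. The simulated recovery of 0% for genotype changes of 1 log2 unit in CD45- cells limits what a lack of calls there can show. Recovery for the genes followed here need not equal the simulated shares.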

Other observations

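Genes of classical macrophage activation, the program set against the alternative one, also rose with selection. Against complete tumors 12 of 16 were higher in CD45+ cells (median 1.57, beside 0.78 for the 10 genes), and against CD45- cells 12 of 16 were (median 1.64, beside 2.49 for the 10 genes), and the difference between the lists was not tested. The differences against complete tumors were led by the chemokine Ccl3 (5.34, adjusted p = 1.38e-06), the cytokine Tnf (4.90, adjusted p = 1.26e-07) and Il1b (3.46, adjusted p = 3.44e-06). Ccl3 (2.48, adjusted p = 0.00529) and Tnf (2.05, adjusted p = 0.00186) also rose in CD45- cells against complete tumors, while most core macrophage markers, 13 of 17, fell there. The transcription factor gene Klf4 behaved alike, at 2.43 (adjusted p = 2.89e-06) in CD45+ and 1.60 (adjusted p = 0.00113) in CD45- cells. Both selected populations were dissociated with enzymes and complete tumors were not, so dissociation and selection cannot be told apart from cell type here. Between genotypes in CD45+ cells, Il6 (1.43, adjusted p = 0.335) and Cxcl10 (1.30, adjusted p = 0.395) had the largest differences of that list, and 0 of 16 passed in limma's fit (3 higher at an unadjusted p under 0.05).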
